A study of Mus musculus with 5 samples.

Results

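The B and T lymphoid identity genes described here are 9 protein-coding genes, chosen by symbol in the GENCODE vM21 annotation of the mouse assembly GRCm38 out of 21755 protein-coding genes on the autosomes and the X chromosome. Of these, 4 mark the B lineage (Cd79a, Cd79b, Pax5 and Ebf1) and 5 mark the T lineage (Cd3e, Cd3d, Cd3g, Lck and Zap70). Their DNA methylation was read from whole genome bisulfite sequencing (WGBS) of acute myeloid leukemia (AML) blasts from the bone marrow of C57BL/6 mice. The blasts carried Cebpa-/p30, that is 1 deleted Cebpa allele and 1 allele that yields the truncated p30 isoform, in both groups. They were Tet2+/+ in 2 libraries (replicates 23 and 24) and Tet2-/- in 3 libraries (replicates 5, 7 and 8), so the comparison asks what loss of TET2 did to these genes in leukemia that is Cebpa-mutant in either group. Per the methods of the study, floxed Cebpa and Tet2 alleles were deleted with an inducible Mx1-Cre after transplantation into irradiated recipients. The cells were sorted as live donor-derived cells without CD3, B220 or Ter119 at the surface, so mature T, B and erythroid cells had been depleted. Per the study the libraries came from separate mice, and whether these carried separate primary leukemias is not given in the sources used here, so p-values measure the spread between these mice.

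A methyl group on the cytosine of a CpG dinucleotide is copied at each cell division, and TET2, an oxidase of methylated cytosine, is one of the enzymes that starts its removal. EBF1 and PAX5 are the transcription factors that specify and hold B cell identity, and CD79A and CD79B are the signalling chains of the B cell receptor. CD3 epsilon, delta and gamma are the signalling chains of the T cell receptor, LCK is the kinase that phosphorylates them, and ZAP70 is the kinase that then binds to them. All 9 are genes of lymphoid cells, and myeloid blasts are not known to need their products.

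The libraries held 63111735 to 110752967 calls at CpG sites, or 2.96 to 5.19 calls per CpG dyad (both strands added). The methylation level, that is methylated calls over all calls, was 67.3% and 62.3% over the genome in the Tet2+/+ libraries and 70.9%, 74.8% and 68.4% in the Tet2-/- libraries. The group means differed by 6.52 points (exact permutation test, two-sided, p = 0.2, with 0.1 the smallest p that 2 against 3 libraries allow), and the Tet2-/- mean of 71.4% compares with 67.3% when replicate 24 is left out. The genotype label was looked at in Tet2 on chromosome 3, in its longest run of dyads without a call in any Tet2-/- library. This run held 36 dyads (chr3:133466411-133468352) and had 128 and 151 calls in the Tet2+/+ libraries. The 0, 0 and 0 calls of the Tet2-/- libraries follow from how the run was chosen. Of the 36 levels measured over the 9 genes in 4 kinds of region, replicate 24 was the lowest library in 26 and replicate 7 the highest in 25, the same libraries that were lowest and highest over the genome. The part of this genome-wide offset in the results below was not tested beyond subtracting each library's median for the regions and 5 kb tiles of the 9 genes, and 1 kb tiles and the genes of other lists carry no such value. Coverage was also read over segments that lymphocytes delete from their DNA. No sample of known lymphocyte content was at hand, and loss of the flanks themselves was not examined. The ratios below therefore cannot give the amount of such cells. They also moved with the flank size, the Tet2-/- mean for Igh being 92.4% with flanks of 200 kb and 82.3% with 500 kb. Coverage of the Igh D segments, which B cells delete, was 95.0% and 88.8% of the 200 kb flanks in the Tet2+/+ libraries and 93.2%, 91.0% and 92.9% in the Tet2-/- libraries (exact permutation test, p = 0.8). Coverage of the Trd D to constant segment, which alpha-beta T cells delete, was 81.8% and 86.4% against 83.5%, 78.7% and 87.4% (exact permutation test, p = 0.9). In the same libraries the promoter of Mpo, a myeloid granule enzyme, had a mean level of 12.5% ± 5.25 in Tet2+/+ (SD, n = 2) against 9.58% ± 1.85 for Tet2-/- (SD, n = 3). The promoter of Spi1, the gene of the myeloid factor PU.1, had 7.66% ± 6.04 and 9.80% ± 2.06, that of Elane 46.9% ± 8.81 and 44.5% ± 10.2, that of Csf1r 68.8% ± 5.20 and 74.7% ± 11.5, and that of Klf1, the gene of an erythroid factor, 26.3% ± 1.39 and 27.6% ± 4.26.

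Methylation rose in Tet2-/- blasts in the bodies of 4 and the 5′ flanks of 4 of the 5 T lineage genes described here, and no promoter of the 9 genes passed the test. Gene bodies rose for Cd3e, Cd3g, Lck and Zap70, by 9.83 to 24 points, and the 10 kb upstream of the gene rose for Ebf1, Cd3e, Cd3d, Lck and Zap70, by 10.9 to 20.7 points. The 10 kb downstream rose for Cd79b and Cd3d, by 14.0 and 13.3 points. None of the 36 regions was called lower. Over all genes, 1.06% of promoters, 15.5% of bodies, 13.0% of upstream flanks and 16.4% of downstream flanks were called higher. The downstream count of the 9 genes lay close to that share. The upstream flank of Cd3d lies mostly in Cd3g, so these rises are partly the same stretch. All calls rest on an adjusted p under 0.05 from edgeR's quasi-likelihood test over all regions of the kind. Most regions of the genome were higher in Tet2-/-, and this test does not subtract that rise, so the calls include it. With limma after subtraction of each library's median, none of the 36 regions passed.

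At the promoter (1000 bp on each side of the start), 0 of 9 genes passed, where 1.06% of all 19455 promoters tested were called higher. At an unadjusted p under 0.05 there were 3 of 9, against 18.1% of all promoters in either direction, and with the likelihood ratio test of edgeR and with limma there were again 0 of 9 at an adjusted p under 0.05. All 3 Tet2-/- libraries lay above both Tet2+/+ libraries at 6 of 9 promoters, and at 32.8% of all promoters. The median difference was 8.79 points over the 9 genes and 2.22 points over all promoters. The median Tet2+/+ level was 65.6% over the 9 promoters and 13.3% over all promoters, so promoters of unlike level are compared here. A comparison at like levels was not made. In gene bodies 4 of 9 genes passed and 15.5% of all 20715 bodies were called higher, while groups did not overlap for 7 of 9 and for 46.0% of all. Upstream, 5 of 9 passed against 13.0% of all 21311 flanks called higher, and groups did not overlap for 8 of 9 against 44.7% of all. Downstream, 2 of 9 passed against 16.4% of all 21328 flanks, and groups did not overlap for 6 of 9 against 52.7%, so that the downstream counts lay close to the background. The median difference of the 9 genes was 10.1 points in bodies, 10.9 upstream and 7.44 downstream, beside 4.95, 5.65 and 6.44 points over all regions of each kind. Among the 9 genes the calls in bodies and upstream lay mostly in T genes. In bodies 4 of 5 T genes and 0 of 4 B genes passed, and upstream 4 of 5 and 1 of 4, with the Cd3d upstream flank lying mostly in Cd3g. In the lists of further genes given below, 10 of 22 T and 9 of 19 B bodies passed, and 7 of 22 and 3 of 19 upstream flanks. The difference between lineages was not tested.

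**Figure D1:**
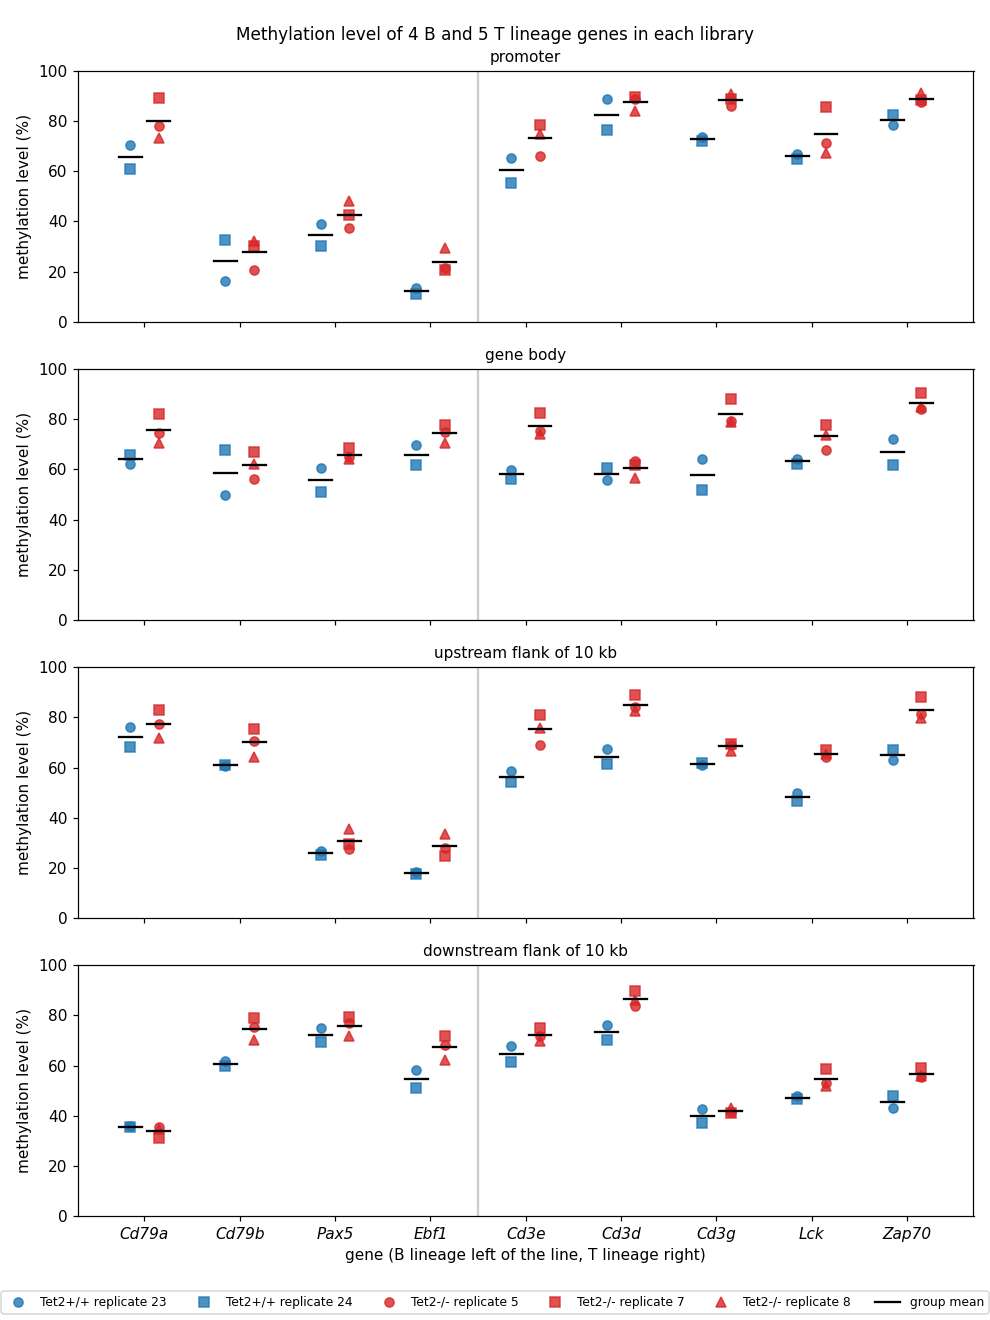
Methylation level (%, y axis) of each gene (x axis) in each library, for the promoter, the gene body and the 10 kb upstream and downstream, with points for single libraries and black bars for group means. The Tet2-/- libraries lie above both Tet2+/+ libraries for 7 of 9 gene bodies and 8 of 9 upstream flanks, and the promoters of Cd79b, Pax5 and Ebf1 lie below those of the T lineage genes.

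**Figure D2:**
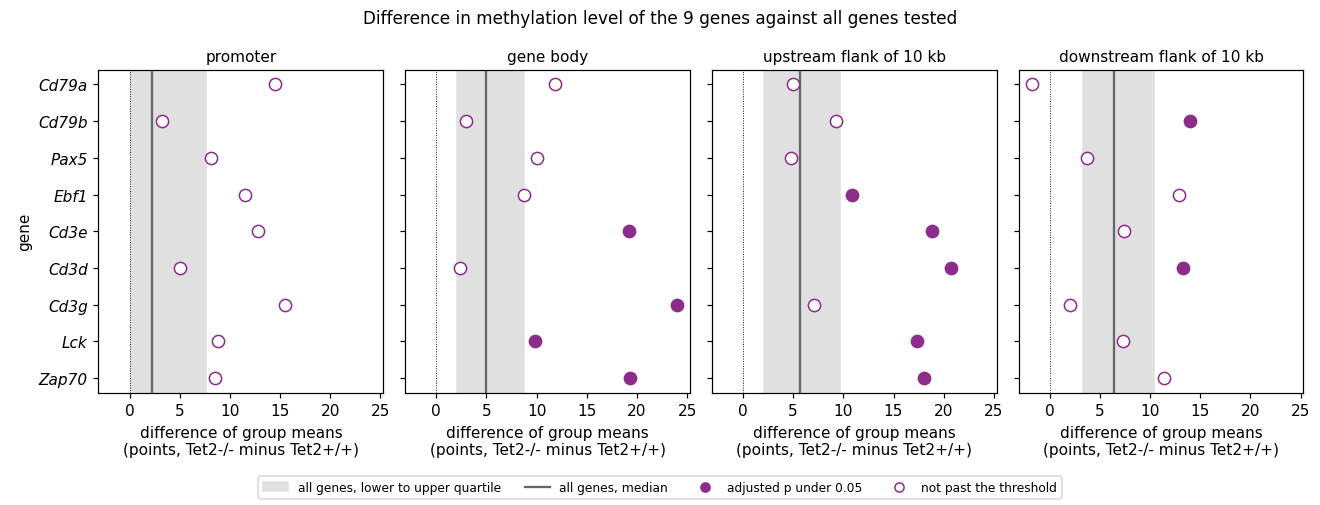
Difference of group means (points, Tet2-/- minus Tet2+/+, x axis) for each gene (y axis) in the 4 kinds of region, filled where the adjusted p was under 0.05, over the median (line) and the quartiles (grey band) of all genes tested. All promoter circles are open, while 4 body and 5 upstream circles are filled and lie to the right of the band.

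Both the calls and the sizes of the differences changed with the test and the libraries used. On the log2 odds scale of limma, the median region was higher in Tet2-/- by 0.38 for promoters, 0.37 for bodies, 0.39 upstream and 0.56 downstream, and subtracting each library's median moved these medians by 0.42 to 0.62. With limma and no subtraction 8 of the 11 called regions passed (3 bodies and 5 upstream flanks), all but the Lck body and the downstream flanks of Cd79b and Cd3d. With limma after the subtraction none of the 36 member regions passed. The differences of the 11 regions called by edgeR were smaller after it and stayed positive. On the log2 odds scale they ran from 0.67 (Lck body) to 1.73 (Cd3g body) before it and from 0.25 to 1.31 in the same regions after it. Downstream of Cd79b the difference fell from 0.94 to 0.32. Without Tet2+/+ replicate 24, 1 Tet2+/+ library was left, so the spread came from the Tet2-/- libraries alone and the lone library was assumed to vary like them. In that fit 1 body (Zap70), 0 upstream flanks and 0 downstream flanks remained called among the 9 genes, and over all genes the calls dropped to 87, 18 and 167. The differences of the 11 regions were then 8.87 to 20.1 points, beside 9.83 to 24 points with all libraries. The fit without Tet2+/+ replicate 23 also left 1 Tet2+/+ library and lost fewer of these calls. How far the rises rested on replicate 24 was not tested further. The tiles below that lost their call without 1 Tet2+/+ library were refitted under the same limit of a lone Tet2+/+ library.

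The B cell receptor chain genes had unlike promoters. Cd79a (chr7:24897381-24902197, forward strand) had a promoter with 45 CpG dyads at chr7:24896381-24898381. Its level was 70.4% and 60.8% in the Tet2+/+ libraries and 78.0%, 89.1% and 73.2% in the Tet2-/- libraries (replicates 23, 24 and then 5, 7, 8, here and throughout). The groups did not overlap, but the difference of 14.5 points did not pass (adjusted p = 0.252). Within that window the 300 bases around the RefSeq start of Cd79a are shown, a choice made after their values were seen, because every CpG in them had a higher level in the Tet2-/- calls. They run from chr7:24897247-24897546 on the forward strand of GRCm38, with CpG in capitals.
Cd79a: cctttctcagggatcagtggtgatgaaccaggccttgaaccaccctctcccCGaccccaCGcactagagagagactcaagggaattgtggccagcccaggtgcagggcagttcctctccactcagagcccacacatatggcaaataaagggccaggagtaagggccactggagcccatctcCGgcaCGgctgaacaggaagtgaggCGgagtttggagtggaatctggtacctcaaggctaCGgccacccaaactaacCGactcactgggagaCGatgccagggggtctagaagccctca
Over these 8 CpGs the level was 22.2% and 9.30% in Tet2+/+ and 48.4%, 79.1% and 53.2% in Tet2-/-. All 3 Tet2-/- libraries were thus above both Tet2+/+ libraries, with replicate 7 the highest, and the pooled calls were 10 methylated of 70 in Tet2+/+ and 142 of 231 in Tet2-/-. This stretch carried 27 to 93 calls per library and was not among the windows fitted, so the difference of 44.5 points has no test. The body of Cd79a had 62.3% and 65.8% against 74.7%, 82.2% and 70.7%, a difference of 11.8 points that did not pass (adjusted p = 0.110). Its upstream flank differed by 4.98 points and its downstream flank by -1.81 points, with overlapping groups in both. Leaving out 1 library moved them between 0.985 and 8.98 and between -2.67 and -0.445 points. The upstream difference turned negative after median subtraction. That downstream flank was the single one of the 36 regions in which the Tet2-/- mean was lower, and it holds the 5′ end of Arhgef1, a neighbouring gene whose start lies 5531 bp from that of Cd79a.

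Cd79b (chr11:106311341-106314762, reverse strand) was low at its promoter in both groups. The level was 16.3% and 32.5% in Tet2+/+ and 20.6%, 30.1% and 32.3% in Tet2-/-, over 23 dyads and 83 to 186 calls per library. The libraries of the 2 groups interleaved, and the difference of 3.27 points (adjusted p = 0.808) turned negative after median subtraction and without Tet2+/+ replicate 23. The body was as mixed, with 49.6% and 67.8% against 56.0%, 66.7% and 62.2%, a difference of 2.97 points (adjusted p = 0.782). The body difference also turned negative after median subtraction and without Tet2+/+ replicate 23. The 10 kb downstream had 61.8% and 59.8% in Tet2+/+ and 75.2%, 79.1% and 70.0% in Tet2-/-. Here every Tet2-/- library was higher, and the rise of 14.0 points passed (adjusted p = 0.048), although it was lost in 6 of 12 alternatives. The upstream flank had 60.4% and 61.2% against 70.7%, 75.5% and 64.0%, without overlap and without passing (9.29 points, adjusted p = 0.0907).

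Pax5 (chr4:44524757-44710487, reverse strand, 185731 bp) encodes the factor that commits B cell precursors. Its promoter holds 56 dyads, or 28.0 per kb, and the 300 bases around its RefSeq start, chr4:44710645-44710944 on the reverse strand, are shown as the CpG-dense end of the 9 genes, with 23 CpGs in capitals.
Pax5: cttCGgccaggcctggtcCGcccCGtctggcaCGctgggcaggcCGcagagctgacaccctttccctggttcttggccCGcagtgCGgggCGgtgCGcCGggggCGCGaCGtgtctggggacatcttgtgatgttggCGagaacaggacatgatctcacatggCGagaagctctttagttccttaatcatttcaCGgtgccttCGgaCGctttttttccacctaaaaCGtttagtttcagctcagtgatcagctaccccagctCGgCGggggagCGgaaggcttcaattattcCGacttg
The level of these 300 bases was 25% and 19.5% in Tet2+/+ and 30.8%, 48.6% and 45.8% in Tet2-/-, a difference of 19.5 points with no test. The full promoter window had 38.9% and 30.3% against 37.3%, 42.7% and 48.2%. Its groups overlapped, and the difference of 8.12 points, or 3.83 without Tet2+/+ replicate 24 and 12.4 without 23, did not pass (adjusted p = 0.581). The gene body, with 2540 dyads and 9394 to 17299 calls per library, had 60.4% and 51.0% against 64.8%, 68.5% and 64.1%. All Tet2-/- libraries were higher by 10.1 points in the mean, which did not pass (adjusted p = 0.150) and was 5.40 points without Tet2+/+ replicate 24. The upstream flank was low throughout, from 25.3% to 35.3% over the 5 libraries, and differed by 4.82 points (adjusted p = 0.315), and the downstream flank differed by 3.76 points with overlap (adjusted p = 0.549). Leaving out 1 library moved the first between 2.57 and 6.43 and the second between 1.04 and 6.49 points. Both turned negative after median subtraction.

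Ebf1 (chr11:44617317-45008091, forward strand, 390775 bp) encodes the factor that acts before Pax5 in the B lineage. Its promoter was the most CpG-dense of the 9, with 68 dyads or 34.0 per kb, and the least methylated. The level was 13.6% and 11% in Tet2+/+ and 21.3%, 20.7% and 29.3% in Tet2-/-. All Tet2-/- libraries were higher, and the difference of 11.5 points did not pass (adjusted p = 0.143). The same order held in the 10 kb upstream, with 18.3% and 17.5% against 28.1%, 24.6% and 33.5%, where the rise of 10.9 points passed (adjusted p = 0.00874). Replicate 8 was the highest library at both places, unlike most other regions of the 9 genes. The body had 69.6% and 61.9% against 75.0%, 77.7% and 70.6%, with the groups 1.06 points apart at their nearest, and did not pass (8.72 points, or 4.87 without Tet2+/+ replicate 24, adjusted p = 0.181). The downstream flank differed by 12.8 points (adjusted p = 0.162).

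**Figure D3:**
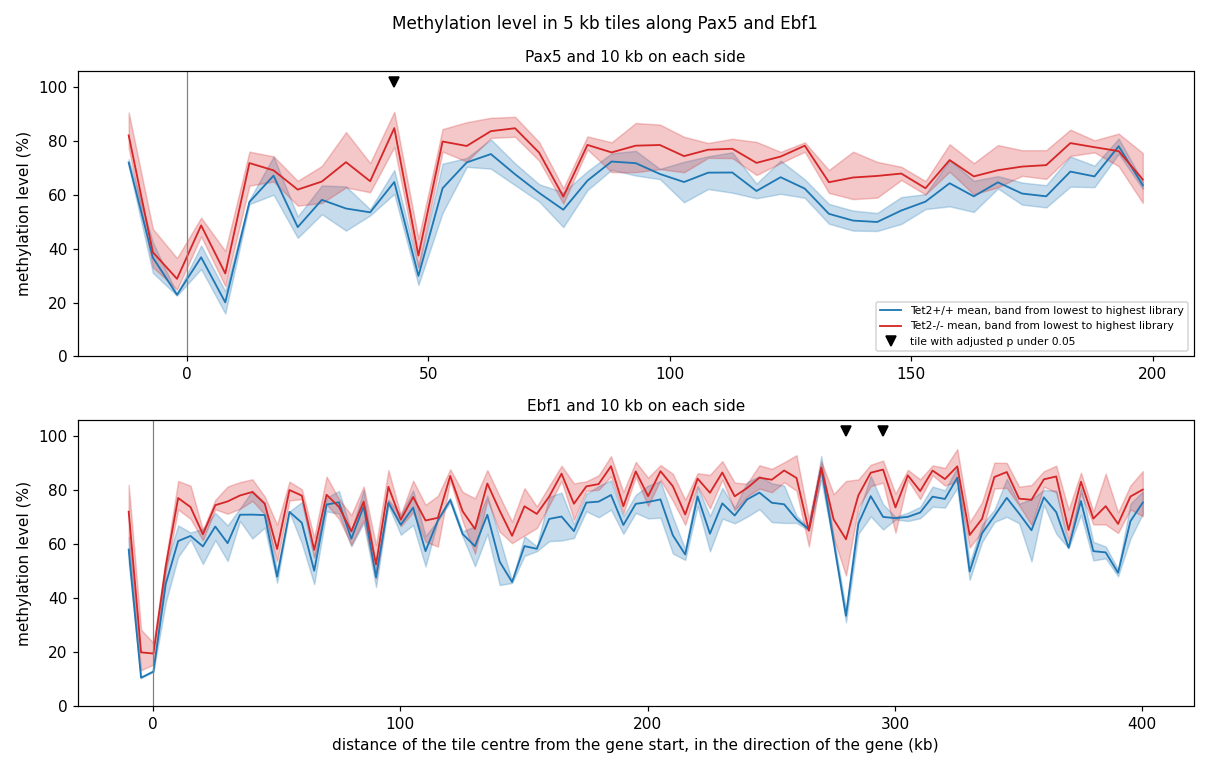
Methylation level (%, y axis) in fixed 5 kb tiles along Pax5 and Ebf1 with 10 kb on each side, against distance from the gene start (kb, x axis), with lines for group means and bands from the lowest to the highest library. Both genes dip near the start, and triangles mark the 1 of 43 tiles of Pax5 and the 2 of 83 tiles of Ebf1 that passed.

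Fixed tiles of 5 kb were used to look inside the long genes. In the Pax5 locus 1 of 43 tiles was called and in the Ebf1 locus 2 of 83, shares close to that of all tiles. All 3 Tet2-/- libraries lay above both Tet2+/+ libraries in 23 and 44 of these tiles, beside 36.6% of all tiles. The differences were thus spread along both genes. Over the 9 loci 169 tiles were tested, 8 were called higher and 0 lower, beside 3.22% of all 488658 tiles of the genome called higher. The tile of Pax5 (chr4:44665001-44670000, inside the gene) had 69.1% and 60.3% in Tet2+/+ and 77.7%, 90.8% and 85.7% in Tet2-/-. It rose by 20.003 points (adjusted p = 0.015). In Ebf1, the tile at chr11:44895001-44900000 had 31.1% and 35.8% against 48.4%, 83.5% and 53.7%, a rise of 28.4 points (adjusted p = 0.0221) in which replicate 7 stood far above the other Tet2-/- libraries. The other Ebf1 tile, chr11:44910001-44915000, rose by 17.6 points (adjusted p = 0.0495) and passed in 3 of 10 alternatives. The 3 Pax5 and Ebf1 tiles were lost without either Tet2+/+ library, with adjusted p of 0.0863 to 1. Without Tet2-/- replicate 7 both Ebf1 tiles were lost (adjusted p = 0.221 and 0.0737), and without replicate 5 the second was (adjusted p = 0.241). With limma after median subtraction none of the 3 passed (adjusted p = 0.274 to 0.372).

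The CD3 genes lie together on chromosome 9. Cd3g (chr9:44969572-44980431, reverse strand) and Cd3d (chr9:44981786-44987339, forward strand) start 1355 bp apart and point away from each other, so their promoter windows share 3 dyads and their upstream flanks overlap the partner gene. Cd3e (chr9:44998740-45009627, reverse strand) lies beyond the 3′ end of Cd3d, and their downstream flanks share 85 dyads, so values of neighbouring CD3 regions are not independent. The promoters of Cd3g and Cd3d had the fewest CpGs of the 9, with 7.50 and 9.50 dyads per kb, and that of Cd3e had 20.5. The start of Cd3e is shown, chr9:45009562-45009861 on the reverse strand, because all 8 of its CpGs (capitals) were higher in the pooled Tet2-/- calls, again chosen after its values were seen.
Cd3e: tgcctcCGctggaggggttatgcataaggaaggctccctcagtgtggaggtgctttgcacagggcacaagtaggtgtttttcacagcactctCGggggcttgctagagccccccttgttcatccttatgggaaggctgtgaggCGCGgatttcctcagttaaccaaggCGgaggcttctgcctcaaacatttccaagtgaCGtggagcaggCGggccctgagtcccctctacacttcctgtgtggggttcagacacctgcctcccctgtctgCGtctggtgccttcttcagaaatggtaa
These 8 CpGs had a level of 64.7% and 47.4% in Tet2+/+ and 74.5%, 89.1% and 93.8% in Tet2-/-, a difference of 29.7 points with no test. In the full window the Cd3e promoter had 65.3% and 55.4% against 66.1%, 78.2% and 75.0%. The groups were 0.781 points apart at their nearest, and the difference of 12.8 points, or 7.80 without Tet2+/+ replicate 24, did not pass (adjusted p = 0.358).

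The body of Cd3e rose in Tet2-/-. It had 59.9% and 56.2% in Tet2+/+ and 75.2%, 82.3% and 74.2% in Tet2-/-, over 145 dyads. The 2 groups were 14.3 points apart at their nearest, and the rise of 19.2 points (adjusted p = 0.000656) was larger than that of 97.7% of all gene bodies. The upstream flank of Cd3e rose as well, from 58.5% and 54.3% to 69.1%, 80.8% and 75.8% (18.8 points, adjusted p = 0.00398). Both calls were lost without Tet2+/+ replicate 24 (adjusted p = 0.164 and 0.221), while the differences stayed between 16.1 and 21.9 points whichever library was left out. The downstream flank differed by 7.44 points (adjusted p = 0.359), or by 4.23 to 10.7 when 1 library was left out. Its difference turned negative after median subtraction.

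Cd3g had the largest body rise of the 9 genes. The level was 64.0% and 51.9% in Tet2+/+ and 79.1%, 87.8% and 78.9% in Tet2-/-. All 3 Tet2-/- libraries were at least 14.9 points above the higher Tet2+/+ library, and the rise was 24 points (adjusted p = 6.31e-05). The promoter was close within groups, with 73.6% and 72.2% against 86.0%, 88.6% and 90.6%. Its difference of 15.5 points was the largest among the 9 promoters and did not pass (adjusted p = 0.145), with 15 dyads and 64 to 129 calls per library behind it. The upstream flank had 61.1% and 61.6% against 69.0%, 69.5% and 66.8% (7.07 points, adjusted p = 0.280). The downstream flank, which holds the 5′ end of Ube4a, had 42.6% and 37.1% against 41.4%, 41.0% and 43.2% (2.04 points, adjusted p = 0.796), and this difference turned negative after median subtraction and without replicate 24.

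Cd3d rose in its flanks, and its body did not pass. The upstream flank, which lies mostly in Cd3g, had 67.2% and 61.5% in Tet2+/+ and 84.0%, 88.7% and 82.5% in Tet2-/-. The groups were 15.3 points apart at their nearest, and the rise of 20.7 points passed (adjusted p = 0.000862). The downstream flank, toward Cd3e, had 76.1% and 70.4% against 83.7%, 89.8% and 86.2% (13.3 points, adjusted p = 0.0269, lost in 6 of 12 alternatives). The body had 55.8% and 60.4% against 63.2%, 61.7% and 56.4%. There the groups overlapped at 2.34 points (adjusted p = 0.803), after median subtraction the sign turned, and leaving out 1 library gave 0.082 to 4.6 points. The promoter had 88.7% and 76.2% against 88.8%, 89.6% and 84.1% (5.002 points, adjusted p = 0.611), which turned negative without replicate 24. The 5 kb tile shared by the Cd3g body and the Cd3d upstream flank (chr9:44970001-44975000) had 50.8% and 37.7% in Tet2+/+ and 70.4%, 88.2% and 74.0% in Tet2-/-, a rise of 33.3 points (adjusted p = 0.000433). The Cd3e tile at chr9:45005001-45010000, over its 5′ part, had 63.6% and 57.3% against 76.8%, 84.4% and 81.8% (20.6 points, adjusted p = 0.0163). Without replicate 24 neither tile passed (adjusted p = 0.627 and 0.948), nor did they with limma after median subtraction (adjusted p = 0.121 and 0.324). The first passed in 8 of 10 alternatives and the Cd3e tile in 5 of 10, being lost also without Tet2+/+ replicate 23 (adjusted p = 0.0984), without Tet2-/- replicate 5 (adjusted p = 0.0504) and with limma (adjusted p = 0.0941).

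Lck (chr4:129548344-129573641, reverse strand) has 2 starts in RefSeq, a distal one at the annotated end of the gene and a proximal one inside it. The distal promoter window had 66.9% and 64.8% in Tet2+/+ and 71.1%, 85.5% and 67.3% in Tet2-/-. Replicate 7 stood above the rest, the nearest libraries of the groups were 0.432 points apart, and the difference of 8.79 points, or 3.35 without replicate 7, did not pass (adjusted p = 0.513). The window of the same width around the proximal start, added after the annotation was seen, had 67.5% and 67.6% against 72.9%, 64.2% and 66.7%, a difference of 0.354 points with overlap and no test. The body had 64.2% and 62.3% against 67.9%, 77.6% and 73.8%. It rose by 9.83 points (adjusted p = 0.0341), a call that was lost in 8 of 13 alternatives, among them each removal of replicate 23, 24, 7 or 8. The upstream flank had 49.8% and 46.6% against 64.2%, 67% and 65.3%. Here both groups were tight, 14.4 points apart at their nearest, and the rise of 17.3 points passed (adjusted p = 0.00728). This flank holds Fam167b, whose 5′ end lies 4908 bp from the start of Lck. The downstream flank, which holds the 5′ end of Hdac1, differed by 7.32 points (adjusted p = 0.344), and this difference turned negative after median subtraction.

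Zap70 (chr1:36761798-36782818, forward strand) gave the smallest adjusted p of the 36 regions. Its body had 72.2% and 61.8% in Tet2+/+ and 83.9%, 90.3% and 84.6% in Tet2-/-, over 362 dyads and 1198 to 2465 calls per library. The groups were 11.7 points apart at their nearest, and the rise of 19.3 points (adjusted p = 1.65e-07) passed in 12 of 13 alternatives, the exception being limma after median subtraction (adjusted p = 0.129). The upstream flank had 62.9% and 67% against 81.5%, 87.9% and 79.7% (18.1 points, adjusted p = 0.00108). The downstream flank had 43.2% and 47.8% against 55.3%, 59.2% and 56.0%, without overlap and without passing (11.4 points, adjusted p = 0.0943). The promoter was methylated in every library, with 78.5% and 82.2% against 87.4%, 88.2% and 91.1% (8.53 points, adjusted p = 0.307). RefSeq has further starts inside Zap70, at chr1:36764515 and chr1:36778984. Their windows of 300 bases had 70.6% and 78.6% against 91.3%, 90.0% and 69.2%, and 75.6% and 65.9% against 91.7%, 87.2% and 94.9%. The groups overlapped in the first window and not in the second, and neither was tested. The window at the annotated start is shown, chr1:36761548-36761847 on the forward strand with 8 CpGs in capitals, as a promoter methylated in both groups. These 300 bases had 79.5% and 84.6% against 93.0%, 86.8% and 100%, the last over 13 calls.
Zap70: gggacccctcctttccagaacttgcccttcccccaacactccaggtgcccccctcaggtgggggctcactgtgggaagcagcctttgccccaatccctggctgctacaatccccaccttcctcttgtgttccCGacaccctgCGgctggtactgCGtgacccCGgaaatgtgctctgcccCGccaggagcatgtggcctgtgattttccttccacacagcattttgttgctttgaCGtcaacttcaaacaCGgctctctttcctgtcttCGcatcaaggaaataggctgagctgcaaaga

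Of the 5 kb tiles of Zap70, 3 of 9 were called, the largest number among the 9 loci. The tile upstream of the gene (chr1:36755001-36760000) had 60.3% and 64.5% in Tet2+/+ and 85.9%, 95.9% and 85.1% in Tet2-/- (26.6 points, adjusted p = 1.63e-05). It overlaps the 3′ end of 4933424G06Rik. It passed without each library in turn and was lost only with limma after median subtraction (adjusted p = 0.108). The tile at chr1:36775001-36780000 had 70.4% and 49.1% against 86.0%, 93.3% and 85.2% (28.4 points, adjusted p = 2.97e-05). The next tile, chr1:36780001-36785000 at the 3′ end, had 44.1% and 34.1% against 65.6%, 75.3% and 70.8% (31.5 points, adjusted p = 0.000173). Both lost the call with limma after median subtraction (adjusted p = 0.0877 and 0.153) and without replicate 24 (adjusted p = 0.624 and 0.382), although replicate 23 lay below all 3 Tet2-/- libraries in both. All other loci had 0 to 2 called tiles.

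Tiles of 1 kb were the planned finer setting. In the 9 loci 619 such tiles were tested and 25 were called higher, beside 2.28% of all 1047054 tiles. Of the 25, 3 had a difference of over 50 points, and they are described because of that size, so their values are a description of the extremes and not a further test. They lay near Zap70, Cd79b and Lck, and the 300 bases of each that hold the most CpGs are shown in the direction of the gene, with CpG in capitals. The Zap70 stretch is chr1:36759027-36759326, the Cd79b stretch chr11:106308262-106308561 and the Lck stretch chr4:129555432-129555731.
Zap70 upstream: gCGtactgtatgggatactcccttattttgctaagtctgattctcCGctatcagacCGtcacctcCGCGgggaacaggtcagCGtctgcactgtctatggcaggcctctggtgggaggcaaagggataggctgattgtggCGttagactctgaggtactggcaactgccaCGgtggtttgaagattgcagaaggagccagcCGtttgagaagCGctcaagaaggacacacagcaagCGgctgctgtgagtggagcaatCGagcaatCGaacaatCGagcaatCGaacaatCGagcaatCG
Cd79b downstream: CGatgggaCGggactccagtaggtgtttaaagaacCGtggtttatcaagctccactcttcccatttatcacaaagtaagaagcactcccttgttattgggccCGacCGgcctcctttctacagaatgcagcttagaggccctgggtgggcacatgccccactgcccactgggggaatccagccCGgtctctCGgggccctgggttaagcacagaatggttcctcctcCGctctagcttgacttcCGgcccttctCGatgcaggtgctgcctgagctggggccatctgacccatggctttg
Lck body: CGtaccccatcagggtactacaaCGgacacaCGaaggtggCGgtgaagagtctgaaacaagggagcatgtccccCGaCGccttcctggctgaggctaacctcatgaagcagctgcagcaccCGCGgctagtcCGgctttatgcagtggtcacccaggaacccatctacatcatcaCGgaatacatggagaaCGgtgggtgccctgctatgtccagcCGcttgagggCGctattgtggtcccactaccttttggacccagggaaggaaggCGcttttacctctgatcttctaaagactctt
The Zap70 stretch is centred at -2621 bp from the start, touches no exon of a protein-coding transcript and ends in a short tandem repeat with a CpG in each unit. The Cd79b stretch is centred 6350 bp after the start of Cd79b, beyond its 3′ end and in no exon of a protein-coding transcript. The Lck stretch lies inside the gene, and 180 of its 300 bases are exon in protein-coding transcripts.

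The tile at Zap70 (chr1:36759001-36760000) was nearly unmethylated in Tet2+/+ and methylated in Tet2-/-. The level was 5.71% and 8.97% in Tet2+/+ and 79.7%, 91.7% and 65.6% in Tet2-/-, over 20 dyads and 61 to 121 calls per library. All 20 CpGs were higher in the pooled Tet2-/- calls, with 13 methylated of 183 calls in Tet2+/+ and 245 of 300 in Tet2-/-, and the tile differed by 71.6 points (adjusted p = 6.02e-07). The neighbouring tiles were at 75.2% or above in every library, so that both Tet2+/+ libraries showed a narrow, deep dip there, and Tet2-/- replicate 8, at 65.6%, a shallow one. The Cd79b tile (chr11:106308001-106309000) was a dip of the same kind in Tet2+/+, with 17.9% and 41.7% in Tet2+/+ and 80.6%, 89.8% and 83.7% in Tet2-/- (54.9 points, adjusted p = 0.000263). The Lck tile (chr4:129555001-129556000) divided the Tet2-/- group. It had 15.2% and 10.1% in Tet2+/+, 21.8% in Tet2-/- replicate 5, and 86.3% and 84.7% in replicates 7 and 8 (51.6 points, adjusted p = 0.00211). Replicate 5 thus stood 6.62 points above the higher Tet2+/+ library, and both other Tet2-/- libraries were far above it. The next tile, chr4:129556001-129557000, was low in every library, at 5.61% and 0.559% against 3.45%, 13.6% and 16.5%. The 1 kb tiles were fitted with all 5 libraries and were not refitted without single libraries.

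The other called 1 kb tiles rose by less. Zap70 had 6 of 35 tested in all, of which 4 adjoined each other at its 3′ end (chr1:36779001-36783000) with rises of 36.6 to 47.9 points. Pax5 had 5 of 188 tested, all inside the gene, with rises of 21.0 to 42.1 points and its largest at chr4:44676001-44677000. Ebf1 had 4 of 267 tested, all at least 204183 bp from the start, with rises of 30.1 to 36.7 points. The counts of Pax5 and Ebf1 lay near the share of 2.28% of all 1 kb tiles. Cd3e had 3 of 24 tested, with rises of 32.1 to 34.6 points, of which 1 lay upstream of the start. Of 26 tiles tested at the Cd3g locus 2 were called, both in the body. They rose by 38.7 and 40.5 points, and the larger also lies in the upstream flank of Cd3d. Lck had 4 of 40 tested with its described tile, and Cd79a had 0 of 22 tested by edgeR at an adjusted p under 0.05.

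**Figure D4:**
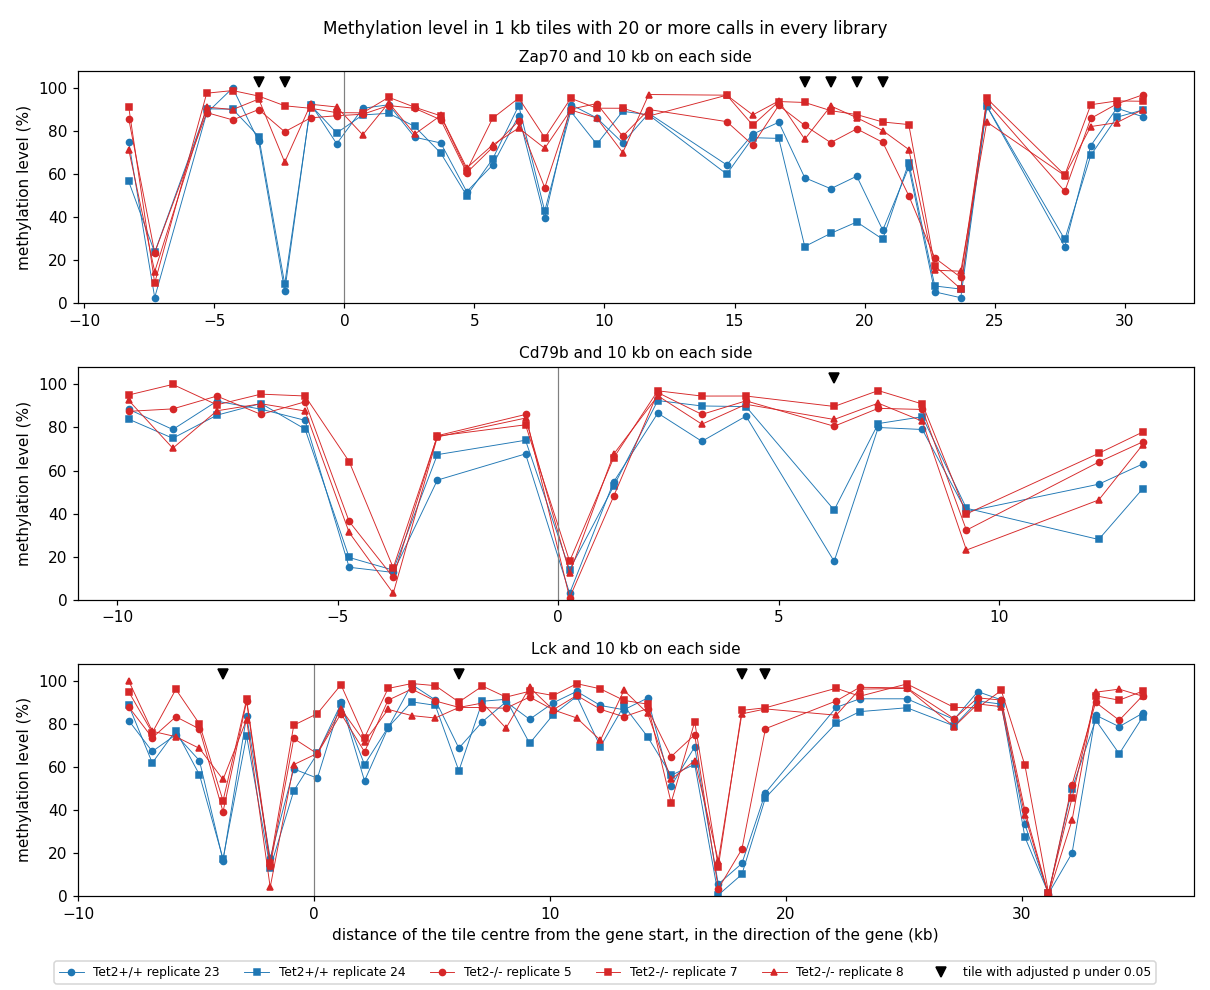
Methylation level (%, y axis) of single libraries in the 1 kb tiles tested, against distance from the gene start (kb, x axis), for Zap70, Cd79b and Lck with 10 kb on each side, and triangles over tiles that passed. Dips of the Tet2+/+ libraries lie in the tiles centred at -2298 bp from the Zap70 start and 6262 bp after the Cd79b start. They are much shallower or absent in the 3 Tet2-/- libraries (65.6% to 91.7% and 80.6% to 89.8%). The dip in the tile centred 18141 bp after the Lck start is absent in replicates 7 and 8 but not in 5.

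Around the start, levels were also read in bins of 1 kb. In the first kb after the start the level over all protein-coding genes was 13.2% to 16.4% in the 5 libraries. Over the 4 B genes it was 28.8% to 48.2%, and over the 5 T genes 74.5% to 87.9%. The pooled B value joins unlike genes: within 500 bp of the start Cd79b had 4.12% to 18.4% and Ebf1 6.36% to 21.4% over the 5 libraries, while Pax5 had 39.2% to 58.2% and Cd79a 46.2% to 86.3%. The largest difference of the T genes lay 2 to 3 kb before the start, with 46.5% and 48.1% in Tet2+/+ and 76.0%, 84.5% and 75.8% in Tet2-/-. That bin holds most of the Zap70 tile described above. The B genes had 28.7% and 30.2% against 25.4%, 29.5% and 33.1% in the same bin, and groups overlapped.

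**Figure D5:**
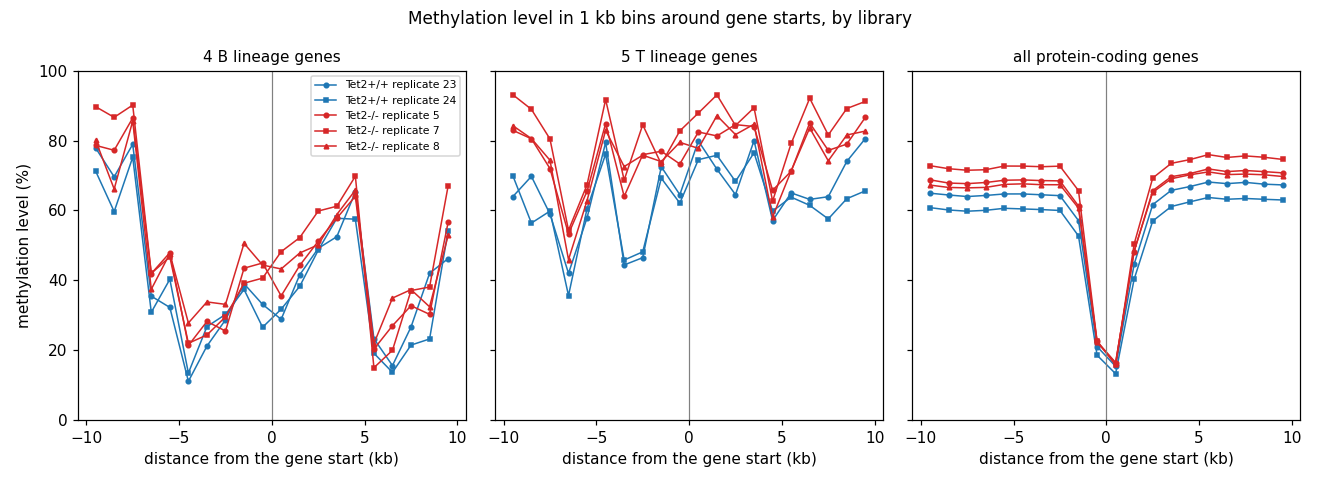
Methylation level (%, y axis) of single libraries in 1 kb bins from 10 kb before to 10 kb after the gene start (kb, x axis), for the 4 B lineage genes, the 5 T lineage genes and all protein-coding genes. Pooled over all protein-coding genes, the level falls to 13.2% to 16.4% after the start, while over the T lineage genes it stays at 74.5% to 87.9%. Calls are pooled, so CpG-dense genes weigh more, and CpG density was not matched.

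The promoter table of RefSeq (GRCm38.p6) held 12 windows of 300 bases for 8 of the 9 genes, all but Cd79b. They were searched on both strands for 4 short motifs of lymphoid and blood cell factors. The E-box CAGGTG, the site of E proteins, was in 8 of 12 windows and in 20.2% of 32851 promoter windows of the table. The ETS core CAGGAA was in 7 of 12 and in 30.6% of all, the RUNX site TGTGGT in 3 of 12 and in 16.8%, and the palindromic EBF site in 0 of 12 and in 0.904%. A match of letters is a description only.

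Other lymphoid genes were counted from lists of the 2 lineages. Of 19 further B lineage genes 0 promoters, 9 bodies, 3 upstream and 4 downstream flanks were called higher and none lower. Over all genes 1.06%, 15.5%, 13.0% and 16.4% of these regions were called higher, so the flank counts of the B list lay near the background. In edgeR, 3 of 19 promoters of the B list and 5 of 22 of the T list had an unadjusted p under 0.05, beside 18.1% of all promoters. The body of Ms4a1, the gene of CD20, went from 63.4% ± 5.12 (SD, n = 2) to 80.1% ± 7.08 (SD, n = 3, adjusted p = 0.00288). Upstream, Rag1 and Pou2af1 rose by 17.7 and 17.6 points, and downstream Spib and Ikzf3 by 18.2 and 15.3 points. Of 22 further T lineage genes 0 promoters, 10 bodies, 7 upstream and 7 downstream flanks were called higher and none lower. The body of Cd6, a T cell surface receptor, went from 63.5% ± 8.36 to 83.3% ± 3.72 (adjusted p = 6.92e-07), and that of Thy1 from 31.3% ± 2.39 to 49.9% ± 1.22 (adjusted p = 0.00945). Upstream, Gata3 and Lat rose by 17.2 and 17.0 points, and downstream Prkcq and Cd6 by 22.9 and 21.8 points. The median body difference was 8.41 points in the B list and 7.73 points in the T list, beside 4.95 points over all bodies.

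Genes of other blood lineages were counted in the same way, against the same shares of all genes. Of 18 myeloid genes 1 promoter, 6 bodies, 3 upstream and 3 downstream flanks rose, and of 6 natural killer cell genes 0, 1, 1 and 3. Of the 7 erythroid genes 1 of 6 promoters, 1 of 5 bodies, 2 of 7 upstream and 1 of 7 downstream flanks that had enough calls rose, and no region of the 3 lists was called lower. The flank counts of the myeloid list and the body and upstream counts of the natural killer list lay near those shares. The promoters that passed were those of Cebpe, a factor of late granulocyte formation, from 2.68% ± 0.351 to 19.4% ± 8.91 (adjusted p = 0.041), and of Hba-a1, an alpha globin gene with a near copy, from 41.5% ± 4.23 to 86.6% ± 1.83 (adjusted p = 0.0415). The body of Cebpe rose by 35.7 points. The body of Mpo rose by 22.3 points in the mean with overlapping groups, at 14.96% and 9.74% in Tet2+/+ and 14.7%, 48.5% and 40.9% in Tet2-/-, so that replicate 5 lay within the Tet2+/+ range. Tbx21, a natural killer and T cell factor, rose by 13.3 points in the body.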

How the data were processed

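WGBS libraries were made from bisulfite-converted DNA of sorted blasts with a random-primed kit. The authors trimmed reads with Trim Galore 0.4.3, checked them with FastQC 0.11.7 and aligned them to GRCm38 (mm10) with Bismark 0.19.1 and Bowtie2, per the submitters' processing notes and the methods. The deposited files hold, for each CpG cytosine, counts of methylated and unmethylated calls. No column was left unmapped to a sample (0).

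The counts of both strands were added per dyad and summed over promoters (1000 bp on each side of the start), gene bodies, flanks of 10 kb and tiles of 5 kb. A region needed 20 calls or more in each library and was then tested with the quasi-likelihood test of edgeR 4.0.16 in R 4.3.3, with Benjamini-Hochberg adjustment over all regions of a kind and a threshold of 0.05. The scripts were tested on simulated data. Python 3.11.15, numpy 2.4.6, pandas 2.3.3 and matplotlib 3.10.9 were used. Group values are mean ± SD over libraries. Single values were compared with the exact permutation test (10 splits, two-sided).

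Alternatives were coverage minimums of 10 and 50 calls, the likelihood ratio test, limma 3.58.1 on log2((methylated + 2)/(unmethylated + 2)) before and after subtraction of library medians, calls thinned to the lowest depth, dyads with a call in all 5 libraries, other promoter widths, bodies without the first 1000 bp, tiles of 1 kb, flanks of 500 kb for the rearranged segments, and leaving out each library. The 9 genes and the lists were chosen with earlier results of these data known. All 9 genes were named. Of each other list, at most the 2 called genes with the largest difference per kind of region were named, beside fixed markers for the check of the cell label. Some named genes are not reported here. At 2.96 to 5.19 calls per dyad, single CpGs are imprecise, and intervals or floors on pooled calls would cover counting error only.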

Additional observations from a re-analysis of the deposited data

How the results depend on the processing

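The libraries held 2.96 to 5.19 calls per dyad, which limits the precision of short regions. No paired analysis was possible because the replicate numbers of the groups (23, 24 and 5, 7, 8) share none. Over all regions, 209 promoters, 3216 bodies, 2776 upstream flanks, 3505 downstream flanks and 15838 tiles were called, 98.6%, 99.6%, 99.7%, 99.9% and 99.3% of them higher in Tet2-/-. With limma there were 181, 485, 1276, 2445 and 7758, and with limma after median subtraction 40, 6, 2, 95 and 311, of which 85.0%, 83.3%, 0.0%, 57.9% and 62.4% were higher. The likelihood ratio test called 1074 promoters, windows of 500 bp 104, windows of 2000 bp 537, bodies without the first 1000 bp 2060 and tiles of 1 kb 24022. Leaving out 1 library gave 0 to 298 promoters, 87 to 3359 bodies, 18 to 3519 upstream flanks, 167 to 2863 downstream flanks and 276 to 20019 tiles, lowest each time without Tet2+/+ replicate 24. Among the 9 genes, limma after median subtraction left 0 bodies, 0 upstream flanks, 0 downstream flanks and 0 tiles. With limma and no subtraction 3 bodies, 5 upstream flanks, 0 downstream flanks and 5 tiles passed, with thinning 1 downstream flank, and with 1 kb tiles 25 tiles. Leaving out 1 library gave 1 to 4 bodies, 0 to 6 upstream flanks, 0 to 2 downstream flanks and 1 to 11 tiles.

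After median subtraction the log2 odds difference turned negative at the Cd79b promoter (-0.19) and body (-0.25), the Cd3d body (-0.28), upstream of Cd79a (-0.027) and Pax5 (-0.088), and downstream of Pax5 (-0.33), Cd3e (-0.13), Cd3g (-0.50) and Lck (-0.20). Leaving out 1 library, the difference ranged from -4.86 to 11.4 points at the Cd79b promoter and from -6.10 to 12.04 in its body, both lowest without replicate 23. It ranged from -1.24 to 11.2 at the Cd3d promoter and from -0.671 to 4.75 downstream of Cd3g, both lowest without replicate 24. None of these regions was called. The Igh D coverage difference was -4.15 with flanks of 500 kb and ranged from -2.60 to 3.57 when 1 library was left out. The Trd difference then ranged from -3.18 to 1.35, was 1.33 without replicate 7, and was -3.62 with flanks of 500 kb. The causes of these shifts were not tested.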
